A study of Thermothelomyces thermophilus ATCC 42464 with 4 samples.

Results

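*Mycth_66804* and *Mycth_115968* are genes of *M. thermophila* described as beta-glucosidase genes in the study's text and product descriptions, and they were taken by identifier from a table of 8716 genes, in which both were found. Transcript levels came from 4 RNA-seq libraries of strain ATCC 42464, with 2 libraries of WT and 2 whose genotype is given as MtTrh-1 deletion. Mycelia of each strain were raised in 2% glucose (45°C, 16 h), washed, and moved for 4 h to 2% Avicel, a microcrystalline cellulose. No carbon source other than Avicel and no time other than 4 h was analysed here, so the values are those of both strains under cellulose. Neither the number of transformants behind the deletion strain nor the use of separate cultures for the libraries is given by the labels. The p-values therefore reflect no more than how these libraries differ within a strain, and that variation may be technical. Levels are in FPKM, sequenced fragments scaled to transcript length and to the size of the library, so that levels of genes of unequal length can be set side by side. The number of fragments behind each value is not stated.

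Cellulose is cut by endoglucanases and cellobiohydrolases into short sugars, above all cellobiose, a dimer of glucose. Beta-glucosidases split cellobiose into glucose, which removes an inhibitor of the cellobiohydrolases and yields the sugar that the cell consumes. In fungi these enzymes belong mainly to glycoside hydrolase families GH1 and GH3, and they may be secreted or act inside the cell on cellobiose brought in by transporters. In *Neurospora crassa*, GH1-1 is an intracellular enzyme, and strains that lack several beta-glucosidases induce their cellulase genes on cellobiose. *Mycth_115968* goes by the name *gh1-1* in *M. thermophila*, and the family of *Mycth_66804* was not stated.

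As a check of the labels, the gene taken to be the target comes before the other results. *Mttrc-1* (*Mycth_90344*), to which the MtTrh-1 of the labels was taken to refer, had 215.45 and 223.41 FPKM in the libraries labelled MtTrh-1 deletion and 13.29 and 14.47 FPKM in WT. If another gene was meant, these levels do not bear on the labels. *Mycth_90344* was thus higher in the libraries labelled MtTrh-1 deletion, with no overlap. For this reason, "labelled MtTrh-1 deletion" is written for these libraries throughout, and each direction below is that of the labels. The libraries of each strain were close to each other, with an SD across genes of the log2 difference of 0.164 and 0.153, against 0.741 to 0.746 between strains. In RNA from whole mycelium, fewer cells that express a gene and less of its RNA per cell cannot be told apart.

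In WT the beta-glucosidase genes stood far apart in level. *Mycth_66804* had 10.12 and 10.33 FPKM and *Mycth_115968* had 704.63 and 684.59 FPKM in the WT libraries. On this per-length scale *Mycth_115968* was 69.6 and 66.3 times as high as *Mycth_66804* within the same library. On the log2(FPKM + 1) scale, the difference in level was 5.95 ± 0.05 (SD, n = 2), larger by far than the gap between the libraries for either gene. No test is given for it, since it compares a pair of genes in 2 libraries. *Mycth_115968* supplied 98.5% of the FPKM of the pair in WT.

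Against all genes of the table, the pair lay on opposite sides of the middle. With a mean of 10.2 FPKM, *Mycth_66804* was below the median gene of WT, at 14.1 FPKM, and 42.4% of the genes were lower than it. *Mycth_115968*, with a mean of 695 FPKM, was 49.1 times as high as that median. It held place 213 of 8716 by mean FPKM in WT and 0.0939% ± 0.0015 (SD, n = 2) of all FPKM of a library. The share of *Mycth_66804* was 0.00138%. By mean level in WT, the genes on either side of *Mycth_66804* were *Mycth_102322*, a polysaccharide lyase gene of family 3, at 10.24 FPKM, and *Mycth_2294347* at 10.22 FPKM, neither of which differed from it beyond the spread of the libraries. Those on either side of *Mycth_115968* were *Mycth_2295009* at 696 FPKM and *Mycth_82782* at 692 FPKM, again within its spread.

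**Figure D1:**
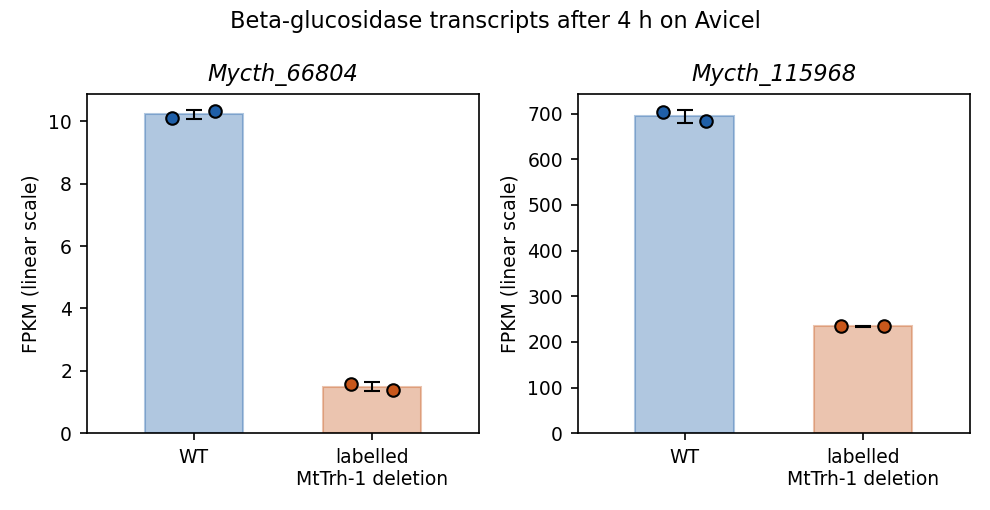
FPKM of each beta-glucosidase gene (vertical axes, linear scale, separate for each gene) in WT and in the libraries labelled MtTrh-1 deletion. Points are single libraries, bars are means and error bars are SD over 2 libraries. The points of a strain nearly coincide, and those labelled MtTrh-1 deletion lie below WT for both genes.

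The strain comparison asked whether the level of these genes under cellulose differed between WT and the libraries labelled MtTrh-1 deletion. Whether loss of the regulator alters them was not tested, since *Mycth_90344*, the gene taken to be meant by the labels, was higher in those libraries. For the comparison, limma was run on log2(FPKM + 1) of the 7525 genes whose mean reached 1 FPKM. Calls required a change of more than 1 on the log2 scale together with an adjusted p below 0.05. Both beta-glucosidase genes were called lower in the libraries labelled MtTrh-1 deletion. By the same rule 4.96% of all genes tested were called lower, and 10.3% were called in either direction.

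*Mycth_66804* had 1.59 and 1.38 FPKM in the libraries labelled MtTrh-1 deletion, against 10.12 and 10.33 FPKM in WT. The strains did not overlap, and the gap between strains was many times that within either. Lack of overlap alone does not set a gene apart here. The uncalled gene *Mycth_109194*, with 8.01 FPKM in both WT libraries and 7.7 and 6.86 FPKM in those labelled MtTrh-1 deletion, did not overlap either. The share of all genes without overlap was not counted. The mean of *Mycth_66804* was 85.5% lower, at 1.49 ± 0.15 FPKM (SD, n = 2) against 10.2 ± 0.15. The log2 fold change was −2.18 (standard error 0.10, 95% confidence interval −2.41 to −1.94, adjusted p = 1.1e-07 from limma). Of the genes tested, 67 had a larger fall. The gene thereby passed from place 5024 to place 7263 of 8716 by mean level, and 16.6% of the genes were then lower than it. At this low level the size of the change depends on the constant added before taking logarithms. It was −2.71 with 0.1 FPKM added and −1.23 with 5 FPKM added, and the ratio of the means with nothing added was 6.89.

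*Mycth_115968* had 233.74 and 235.31 FPKM in the libraries labelled MtTrh-1 deletion, against 704.63 and 684.59 FPKM in WT. Again both libraries of one strain lay below both of the other. The mean was 66.2% lower, at 235 ± 1 FPKM (SD, n = 2) against 695 ± 14. The log2 fold change was −1.56 (standard error 0.05, 95% confidence interval −1.67 to −1.46, adjusted p = 4.7e-09 from limma), and 163 genes had a larger fall. Even so, it remained an abundant transcript, at place 513 of 8716 and 15.7 times the median gene. Its change hardly depended on the constant, at −1.57 with 0.1 FPKM and −1.55 with 5 FPKM added.

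In FPKM, nearly all of what was lost came from *Mycth_115968*. The summed level of the pair was 705 ± 14 FPKM (SD, n = 2) in WT and 236 ± 1 FPKM in the libraries labelled MtTrh-1 deletion. *Mycth_115968* accounted for 460 FPKM of this difference and *Mycth_66804* for 8.74 FPKM. In proportion, by contrast, *Mycth_66804* lost more. *Mycth_115968* was 147 and 171 times as high as *Mycth_66804* in the libraries labelled MtTrh-1 deletion, and both of these ratios exceeded those of WT. The log2 difference between the genes was 6.57 ± 0.09 (SD, n = 2) there and 5.95 ± 0.05 in WT. The strain difference of 0.61 had a p of 0.33 in an exact two-sided permutation test over libraries, which is the smallest that 2 libraries against 2 allow. With 5 FPKM added in place of 1 it became −0.31, so that which gene fell further on the log scale turns on the treatment of low values.

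**Figure D2:**
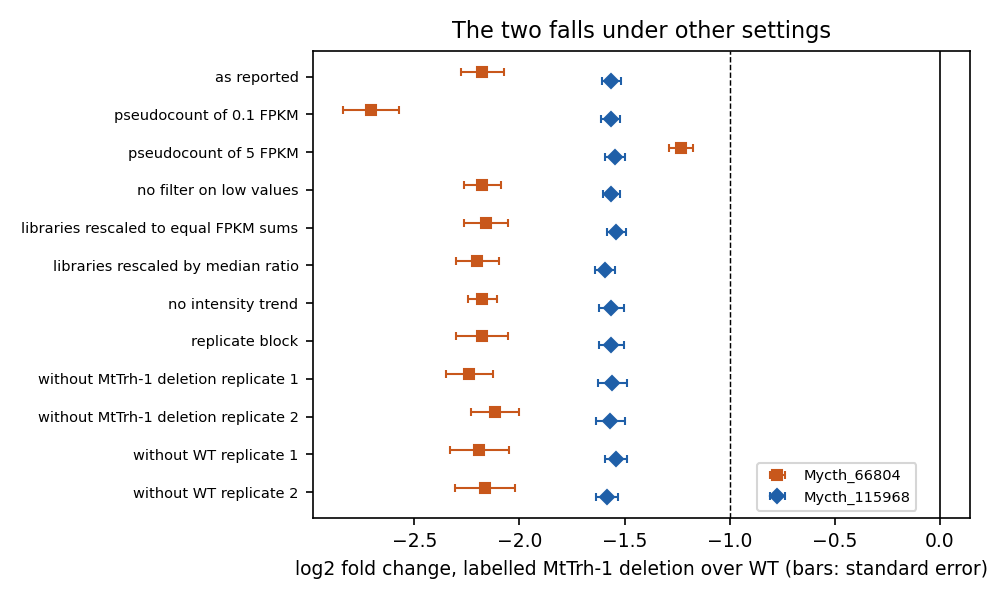
Log2 fold change of *Mycth_66804* (squares) and *Mycth_115968* (diamonds) between the libraries labelled MtTrh-1 deletion and WT (horizontal axis), with bars of 1 standard error, for the reported setting and 11 alternatives (vertical axis). *Mycth_115968* stays between −1.59 and −1.54, whereas *Mycth_66804* ranges from −2.71 to −1.23 with the constant added, and every value lies below the dashed line at −1.

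The beta-glucosidase genes were then set beside 9 genes of cellulose degradation that the study names. All 9 were lower in the libraries labelled MtTrh-1 deletion, with a median log2 fold change of −1.81, against 0.03 over all genes tested and a background of 4.96% called lower. The study names all 9 of these genes, and *Mycth_66804* as well, for being lower in its own Avicel transcriptome. The list thus holds only genes already reported as lower. The paper cites another data series for its RNA-seq, and whether that transcriptome includes the libraries analysed here is not stated. Neither the count nor the median is therefore taken as independent evidence of direction. The changes ranged from −3.85 for *Mycth_80312*, a gene of a lytic polysaccharide monooxygenase (LPMO), which cleaves cellulose by oxidation, to −1.31 for *Mycth_66729*, which encodes the cellobiohydrolase CBH-2. Both beta-glucosidase genes lay inside this range. On this scale *Mycth_66804* was close to the LPMO gene *Mycth_92668*, at −2.19, although the ratios of the mean FPKM were 6.89 and 4.74. *Mycth_115968* was close to the LPMO gene *Mycth_110651*, at −1.53. The endoglucanase genes *Mycth_76901* and *Mycth_86753* had −1.40 and −1.39. *Mycth_81925*, whose product cellobiose dehydrogenase oxidizes cellobiose and so draws on the same sugar as the beta-glucosidases, had 1298.29 and 1269.89 FPKM in WT and 220.64 and 230.07 FPKM in the libraries labelled MtTrh-1 deletion. This was a log2 fold change of −2.51, a larger fall than that of *Mycth_115968*. Against *Mycth_66804* the order depends on the constant, since the ratio of the mean FPKM was 5.70 for *Mycth_81925* and 6.89 for *Mycth_66804*.

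By level, *Mycth_115968* held place 8 and *Mycth_66804* the last place of these 11 genes in WT. Next below *Mycth_115968* in the order was the endoglucanase gene *Mycth_76901*, with 686.98 and 666.2 FPKM. The values of the pair overlapped across libraries, and within the same WT library *Mycth_115968* was 1.03 times as high in each. In the libraries labelled MtTrh-1 deletion, *Mycth_76901*, with 264.08 and 247.88 FPKM, lay above *Mycth_115968*, and *Mycth_81925* lay below it. *Mycth_66804* was last in either strain, and the next gene up, *Mycth_92668*, had 94.02 and 90.86 FPKM in WT and 19.63 and 19.35 FPKM in the libraries labelled MtTrh-1 deletion. Of the summed FPKM of the 11 genes, *Mycth_115968* took 1.57% ± 0.12 (SD, n = 2) in WT and 1.76% ± 0.04 in the libraries labelled MtTrh-1 deletion, and *Mycth_66804* took 0.0231% ± 0.0009 and 0.0111% ± 0.0009.

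The transcripts of cellobiose release and of cellobiose cleavage were also compared within libraries. *Mtcbh-1* (*Mycth_109566*), which encodes a cellobiohydrolase and so a source of cellobiose, was 18.8 and 23.4 times as high as *Mycth_115968* in WT and 18.6 and 16.8 times in the libraries labelled MtTrh-1 deletion. The nearest libraries of the strains were almost equal, and the means of the strains differed by less than the WT libraries did. Against *Mycth_66804*, *Mtcbh-1* was 1308 and 1552 times as high in WT and 2729 and 2865 times in the libraries labelled MtTrh-1 deletion. These ranges did not overlap. The latter ratios rest on 1.59 and 1.38 FPKM of *Mycth_66804*, low values for which the number of fragments is not stated. The smallest p that the exact permutation test allows is 0.33 for either ratio, and both reached it. The ratios were chosen after the values were seen.

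**Figure D3:**
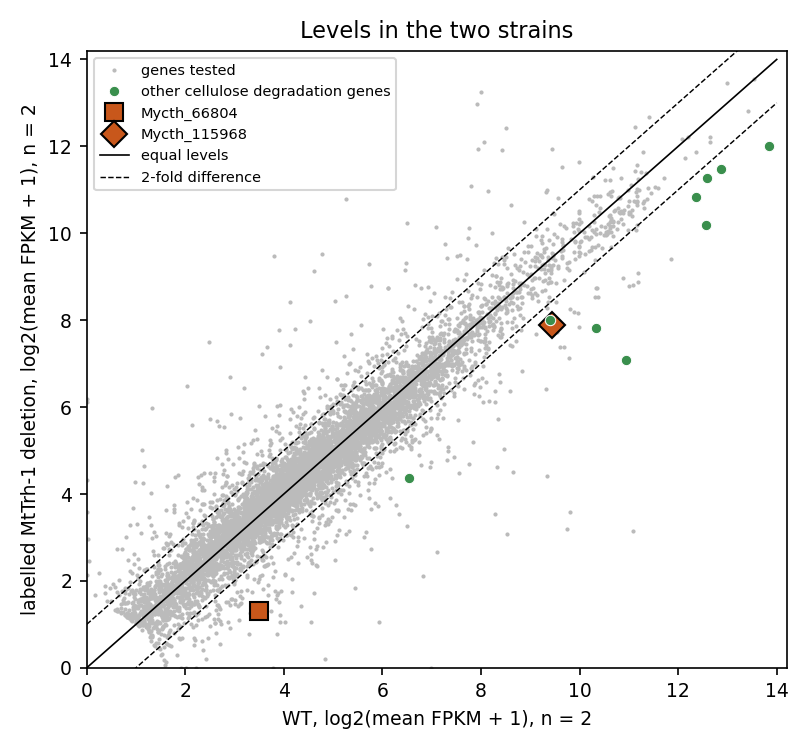
Mean level of each of 7525 genes in WT (horizontal axis) and in the libraries labelled MtTrh-1 deletion (vertical axis), both as log2(mean FPKM + 1) over 2 libraries, with the beta-glucosidase genes and 9 other cellulose degradation genes marked. *Mycth_66804* (square) sits at the low end and *Mycth_115968* (diamond), which the point of *Mycth_76901* overlies, among the abundant transcripts. All marked genes lie below the lower dashed line of a 2-fold difference.

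Other glucosidase and galactosidase genes were measured at low levels, of at most 8 FPKM. Of 6 such genes with a product description or a name in the study, 5 were tested and none was called in limma, which with so few genes is near the background of 10.3%. The call of *Mycth_114497*, with 3.68 and 2.92 FPKM in WT and 1.37 and 1.4 FPKM in the libraries labelled MtTrh-1 deletion, depends on the constant, and with 0.1 FPKM added it was called lower, at −1.19. With no fold threshold, the adjusted p of 2 lower genes and 1 higher gene was below 0.05, and the unadjusted p that of 3 lower genes and 1 higher gene. Over all genes tested, 31.3% were lower and 34.2% higher by the adjusted p alone, and 32.6% and 35.7% by the unadjusted p. *Mycth_2059579*, the only other gene described as a beta-glucosidase, had 3.05 and 2.8 FPKM in WT and 2.46 and 1.95 FPKM in the libraries labelled MtTrh-1 deletion, which limma put at −0.30 on the log2 scale (95% confidence interval −0.59 to −0.0037, adjusted p = 0.070). Its libraries did not overlap, but the gap was small beside that of *Mycth_66804*. *Mycth_104106*, described by family GH3, had 2.58 and 2.84 FPKM in WT and 3.34 and 2.94 FPKM in the libraries labelled MtTrh-1 deletion, which limma put at 0.16 on the log2 scale (95% confidence interval −0.11 to 0.42, adjusted p = 0.27). Both of these genes lay below *Mycth_66804* in WT, whereas in the libraries labelled MtTrh-1 deletion both lay above it. *Mycth_2094324*, described as a beta-galactosidase, and *Mycth_114497*, described as a beta-galactosidase or glucuronidase, had log2 fold changes of −0.73 and −0.84. The alpha-glucosidase gene *Mycth_2087807* had 0.33, and the alpha-glucosidase gene *Mycth_2303089*, with 0.73 and 0.79 FPKM in WT and 0.4 and 0.32 FPKM in the libraries labelled MtTrh-1 deletion, was not tested. Product descriptions were at hand for only part of the genes, so further beta-glucosidase genes may lie outside this list.

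Sugar transporter genes, whose products include those that bring cellobiose and glucose into the cell, moved in both directions. Descriptions were at hand for only part of the genes, so further sugar transporter genes may lie outside this list. Of 14 genes described as sugar transporters, 11 were tested. Among these, 3 were lower and 2 higher in the libraries labelled MtTrh-1 deletion (limma), beside 4.96% lower and 5.3% higher over all genes. Their median log2 fold change was −0.12. *Mycth_114107* was the most abundant of the 14 in WT, at 1314.87 and 1277.1 FPKM, and fell to 414.9 and 432.12 FPKM, which limma put at −1.61 on the log2 scale (adjusted p = 6e-09). It was 1.87 times as high as *Mycth_115968* in each WT library and 1.78 and 1.84 times as high in the libraries labelled MtTrh-1 deletion, so that the levels of this pair kept nearly the same proportion. *Mycth_104673* fell from 5.66 ± 0.67 FPKM (SD, n = 2) to 1.02 ± 0.16. In the other direction, *Mycth_108924* rose from 6.56 ± 0.32 to 102 ± 2 FPKM and *Mycth_112491* from 9.44 ± 0.13 to 23.3 ± 1.7. Which sugars these proteins carry is not given by their descriptions.

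**Figure D4:**
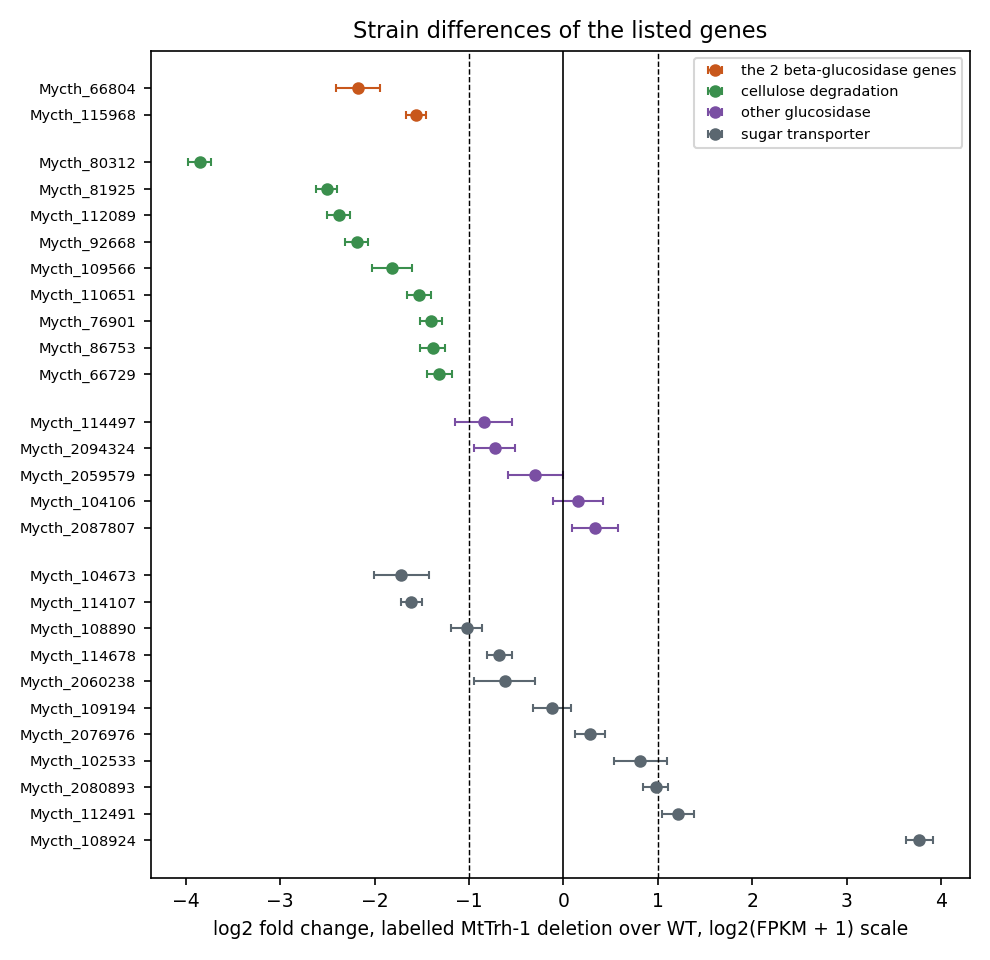
Log2 fold change between the libraries labelled MtTrh-1 deletion and WT on the log2(FPKM + 1) scale (horizontal axis), with 95% confidence intervals, for the beta-glucosidase genes and the listed genes tested (vertical axis). Both beta-glucosidase genes and the 9 cellulose degradation genes lie left of the dashed line at −1, the other glucosidase genes lie between the dashed lines, and the sugar transporter genes lie on both sides, from −1.72 to 3.77.

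The genes beside each beta-glucosidase gene in the genome were also read. By order in RefSeq assembly ASM22609v1, the nearest genes to *Mycth_66804* were *Mycth_80161* and *Mycth_2110669*. *Mycth_80161* had 11.89 and 10.75 FPKM in WT and 11.45 and 10.29 FPKM in the libraries labelled MtTrh-1 deletion, and its log2 fold change was −0.05. *Mycth_2110669*, described as a fungal transcriptional regulator, had at most 0.28 FPKM in any library and was not tested. The next ones out were *Mycth_93495*, with at most 0.33 FPKM, and *Mycth_2305608*, with a log2 fold change of 0.01. Around *Mycth_115968*, *Mycth_2303657* was lower, with 15.62 and 15.65 FPKM in WT and 9.26 and 8.34 FPKM in the libraries labelled MtTrh-1 deletion. In limma this was −0.76 on the log2 scale (adjusted p = 2.3e-05), short of the fold threshold. *Mycth_5082* and *Mycth_2303662*, on the other side, had −0.15 and −0.39 (adjusted p = 0.13 and 0.0011 from limma), and a tRNA gene lies beyond *Mycth_2303657*. Of the 5 neighbours tested, 0 were called in limma and 2 had an unadjusted p below 0.05. Over all genes tested these shares were 10.3% and 68.4%, so that the counts are near or below the background and are given as a description.

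Finally, the genes with the most similar pattern were sought. Likeness was measured by the root mean square difference of log2(FPKM + 1) over the 4 libraries, each gene centred on its own mean, so that it reflects above all an equal change between the strains on this scale. Closest to *Mycth_66804* was *Mycth_2072383*, of glycoside hydrolase family GH43, a family of enzymes that act on plant hemicellulose, with a difference of 0.0272 and a fall from 22.7 to 4.29 FPKM. *Mycth_55803* and *Mycth_64299* came next, at 0.0397 and 0.0408, and the LPMO gene *Mycth_92668* followed at 0.0454. Closest to *Mycth_115968* were *Mycth_63965*, at 0.00988, *Mycth_2307990*, at 0.016, and *Mycth_2314077*, at 0.0231. Their levels were lower, with means in WT of 94.8, 17.5 and 45.9 FPKM. The transporter gene *Mycth_114107* followed after 6 genes, at 0.0301, and the LPMO gene *Mycth_110651* after 15, at 0.042. For *Mycth_66804* these names depend on the constant. With 0.1 FPKM added, an alternative chosen after seeing the data, *Mycth_2072383* held place 25 and *Mycth_92668* place 48, and the nearest genes were *Mycth_2313146*, *Mycth_2308477* and *Mycth_94532*, none of the former 3. For *Mycth_115968*, *Mycth_63965* stayed nearest, and *Mycth_2307990* and *Mycth_2314077* moved to places 53 and 15. With 1 FPKM added, the beta-glucosidase genes themselves were less alike, at 0.312, and 123 genes were closer to *Mycth_66804* and 324 closer to *Mycth_115968* than the other member of the pair was. Where a gene had no product description at hand, only its identifier is given.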

How the data were processed

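The authors deposited 1 FPKM value per gene and library, to 2 decimals, for 8716 genes. HISAT and Bowtie2 are listed in the submitters' notes on processing. The quantifier, build and annotation behind these FPKM were not given in the sources used here. TopHat, HTSeq and DESeq2 are instead named in the paper's methods for counts of 3 replicates mapped to predicted transcripts. Those counts were not analysed here, and the sources do not say whether they include these libraries. From the deposited FPKM, log2(FPKM + 1) was fitted with limma 3.58.1 (R 4.3.3) with an intensity trend, no covariate and Benjamini-Hochberg adjustment over the 7525 genes whose mean reached 1 FPKM. The fold change is on this scale and understates the change of low genes. The thresholds, an adjusted p of 0.05 and a 2-fold change, are those of the paper. Before use, the procedure was tested on simulated data, with independent noise set by the spread of the WT libraries. If that spread is technical, the test does not cover variation between cultures. Changes were planted in the simulated data only in genes of higher WT level than *Mycth_66804*, so the test does not cover so low a gene. Single ratios were compared by exact permutation (scipy 1.17.1). The members and lists were chosen with earlier results of these data known. Named genes are the members, the listed genes, up to 4 called sugar transporters of largest change, 2 neighbours on each side, and the genes nearest in pattern and level. Of 8716 identifiers, 8681 matched RefSeq ASM22609v1. Alternatives covered the pseudocount, filter, scaling, variance trend, replicate block, thresholds and each library left out. Plots were drawn with matplotlib 3.10.9.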

Additional observations from a re-analysis of the deposited data

How the results depend on the processing

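The falls of *Mycth_66804* and *Mycth_115968* kept their direction and stayed past both thresholds under all 11 alternatives run for each, at −2.71 to −1.23 and −1.59 to −1.54 on the log2 scale, and without 1 library at a time at −2.24 to −2.12 and −1.58 to −1.54. The adjusted p was at most 3.4e-05 and 1.4e-05 in limma. The level of *Mycth_115968* over *Mycth_66804* in WT was 6.07 with 0.1 FPKM added and 5.52 with 5 FPKM added, in place of 5.95, and 5.92 to 5.99 without 1 WT library. Its strain difference of 0.61 reversed to −0.31 with 5 FPKM added, which compresses low values, and was 0.55 to 0.68 without 1 library. The 9 cellulose degradation genes were called lower in every setting run for them. Among the other glucosidase genes, 1 was called with 0.1 FPKM added (*Mycth_114497*, at −1.19). The 772 genes called became 493 with 5 FPKM added and 4926 with no fold threshold, and 756 to 789 without 1 library. With 0.1 FPKM added, an alternative chosen after seeing the data, none of the 3 genes most like *Mycth_66804* and 1 of the 3 most like *Mycth_115968* stayed among the nearest 3. The libraries of the strains share only replicate numbers, and same-numbered deviations had a correlation of −0.02 across genes. The replicate block leaves 1 residual degree of freedom and, in this balanced design, cannot alter the fold changes of −2.18 and −1.56. It gave 773 calls, with 9 and 0 calls in the cellulose degradation and other glucosidase lists as before. Its adjusted p of 1.3e-66 for *Mycth_66804* and 1.9e-147 for *Mycth_115968* in limma are not credible for 4 libraries. The calls of that fit therefore carry little weight. The depth behind the FPKM of *Mycth_66804* in the libraries labelled MtTrh-1 deletion is unknown, which limits the precision of its fold change.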
